A study of Mus musculus with 27 samples.

Results

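A set of 9 genes of antigen presentation through major histocompatibility complex (MHC) class II were followed in RNA-seq data from the mouse brain after infusion of antibodies against the neuronal surface protein IgLON5. They were Cd74, H2-Aa, H2-Ab1, H2-Eb1, H2-DMa, H2-DMb1, Ciita, Cd86 and Cd80, found by their symbols in the GENCODE M21 annotation among 55487 genes of the count matrix, and all 9 were present. Male C57Bl/6J wild-type mice, 8 weeks old at the start, carried an osmotic pump that emptied into the right lateral ventricle for 14 days at 0.25 µl per hour. The pump held α-IgLON5#1, a polyclonal pool of human IgLON5-specific antibodies purified from patient plasma, the human control IgG called pCtrl, or PBS, so every group shared the implant and the infusion. The study took the hemisphere opposite the cannula, and its text calls pCtrl an IgG from healthy serum while the sample labels call it monoclonal. There were 27 libraries from 14 mice: hippocampus and cortex of 5 PBS mice, hippocampus of 4 and cortex of 5 pCtrl mice, and both tissues of 4 α-IgLON5#1 mice. The number in a library's label was taken as the mouse. Whole pieces of tissue were sequenced, although the labels name neurons as the cell type, and marker genes of neurons, astrocytes, oligodendrocytes, microglia and endothelium were all present. In such bulk RNA, more cells of a type and more RNA per cell cannot be told apart.

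MHC class II molecules present peptides from internalized proteins to CD4 T helper cells. An α chain (H2-Aa) and a β chain (H2-Ab1, H2-Eb1) assemble on the invariant chain (Cd74), which blocks the peptide groove until it is digested in endosomes, and H2-DM (H2-DMa with H2-DMb1) then exchanges its last fragment for a peptide. Ciita is the transactivator without which class II genes are not transcribed, and Cd80 and Cd86 are the ligands that deliver the second signal through Cd28. In the healthy brain class II is scarce and mostly found on macrophages of the borders, while microglia can take it up when activated.

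Class II promoters share a W/X/Y module, read by the RFX complex, Creb1 and the NF-Y complex, on which Ciita docks. The promoters of the chain genes called in the cortex comparison below are shown because they differ in the motif matches near their start. The letters come from the RefSeq promoter table (GRCm38.p6) and are the last 130 bases before the annotated start, on the gene's strand, with each match to the X1 box core ACNGATG and to CCAAT (or its reverse ATTGG) in capitals. H2-Eb1 lies on the forward strand and the printed stretch is chr17:34305737-34305866. H2-Aa lies on the reverse strand and the stretch is chr17:34287824-34287953.
H2-Eb1: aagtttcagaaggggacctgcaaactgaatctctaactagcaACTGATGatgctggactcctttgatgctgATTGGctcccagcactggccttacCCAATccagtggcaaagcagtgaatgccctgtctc
H2-Aa: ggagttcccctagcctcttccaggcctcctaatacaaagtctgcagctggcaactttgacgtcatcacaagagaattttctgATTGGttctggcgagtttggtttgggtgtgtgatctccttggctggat
H2-Eb1 held an X1 core followed 29 bases later by ATTGG. H2-Eb1 also held a CCAAT nearer its start. H2-Aa held ATTGG 48 bases before its start and no X1 core in the printed stretch, while its promoter in the table held 1 X1 core outside that stretch. The search was for these exact letters, so a variant X box would not be marked, and the site read by Creb1 was not searched. A missing match therefore does not show that the module is missing. Of the 5 genes with a promoter in the table, 3 held an X1 core. The pair of an X1 core and, 10 to 35 bases downstream, a CCAAT in the opposite sense was found in 0.204% of 32851 promoters of the same length, on either strand. Of those 5 genes (H2-Aa, H2-Eb1, H2-DMa, H2-DMb1, Cd80), 2 held it, H2-Eb1 and H2-DMb1, whose pairs lay 88 and 91 bases before the RefSeq start. Each motif alone was common, with 9.85% of promoters for the X1 core and 37.4% for CCAAT.

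Cd74, the invariant chain (ENSMUSG00000024610.15, chromosome 18, 60803848 to 60812652, GRCm38), had the highest mean level of the 9 genes in the α-IgLON5#1 groups. In the hippocampus of mouse 9, H2-DMa was higher, at 16.1 CPM. Levels are given as CPM, which scales each library to the same TMM-normalized size. In α-IgLON5#1 hippocampi Cd74 was 82.5 CPM in mouse 8, 58.0 in mouse 17, 25.9 in mouse 16 and 10.5 in mouse 9. In pCtrl hippocampi it was 20.4 in mouse 15, 9.93 in mouse 10, 8.23 in mouse 37 and 6.75 in mouse 75, and in PBS hippocampi it was 20.8 in mouse 38 and between 3.09 and 6.31 in the other 4. The hippocampal groups overlapped, because mouse 9 lay below the control mice 15 and 38. In α-IgLON5#1 cortices Cd74 was 65.1 in mouse 8, 35.2 in mouse 17, 24.1 in mouse 16 and 21.5 in mouse 9. In the control cortices it was 18.7 in pCtrl mouse 15 and 5.91 to 8.09 in the other 4, and 19.9 in PBS mouse 38 and 4.59 to 5.98 in the other 4. All 4 α-IgLON5#1 cortices were therefore above all 10 control cortices, by a narrow margin over mice 38 and 15.

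The 3 chain genes lie together on chromosome 17 of GRCm38, H2-Ab1 (ENSMUSG00000073421.6) at 34257689 to 34269419, H2-Aa (ENSMUSG00000036594.15) at 34282744 to 34287823 and H2-Eb1 (ENSMUSG00000060586.11) at 34305867 to 34316674. H2-Aa in α-IgLON5#1 hippocampi was 44.4 CPM in mouse 8, 37.7 in mouse 17, 12.99 in mouse 16 and 8.67 in mouse 9, against 14.6 in pCtrl mouse 15 and 3.51 to 5.76 in the other 3 pCtrl hippocampi. In the cortex it was 34.6, 20.5, 13.6 and 14.9 in mice 8, 17, 16 and 9, against 9.96 in pCtrl mouse 15 and 2.66 to 3.94 in the other 4. H2-Ab1 ranged from 6.65 to 38.6 CPM in α-IgLON5#1 hippocampi and from 2.85 to 11.4 in pCtrl, and from 12.1 to 31.9 in α-IgLON5#1 cortices and from 2.18 to 8.95 in pCtrl. H2-Eb1 ranged from 5.75 to 36.0 CPM in α-IgLON5#1 hippocampi and from 3.51 to 11.4 in pCtrl, and from 10.8 to 26 in α-IgLON5#1 cortices and from 2.91 to 8.83 in pCtrl. As for Cd74, all 3 were highest in mouse 8, and among the controls in pCtrl mouse 15 and PBS mouse 38, in both tissues. In the cortex mice 9 and 16 changed places, with mouse 16 lowest for the chain genes and mouse 9 lowest for Cd74.

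**Figure D1:**
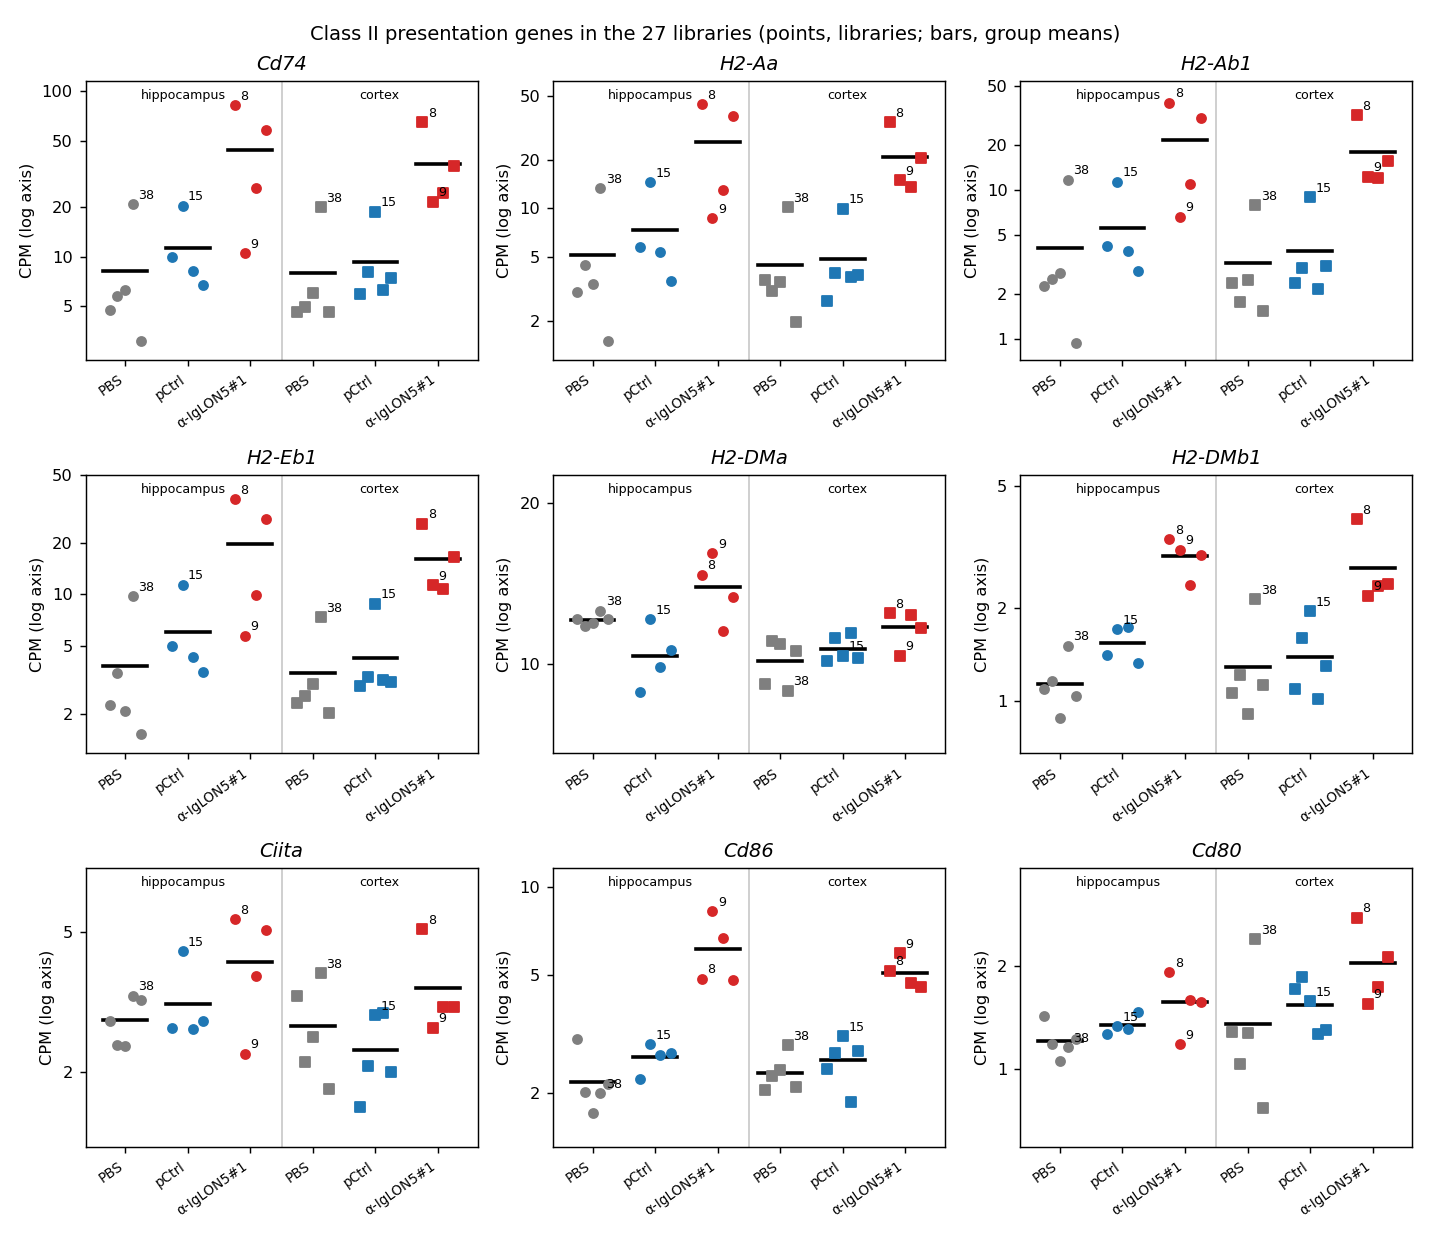
Level of each of the 9 genes (y, CPM on a log axis) in the 27 libraries by group (x); points are libraries, bars are group means, and mice 8, 9, 15 and 38 are numbered. Control mice 15 and 38 stand above the other controls for Cd74 and the 3 chain genes, while Cd86 separates all 8 α-IgLON5#1 libraries from all 19 controls.

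The 4 genes kept nearly fixed proportions while their level changed 28.6-fold, from a sum of 7.04 CPM in PBS mouse 74 hippocampus to 201.5 in α-IgLON5#1 mouse 8 hippocampus. Over the 27 libraries, H2-Aa was 0.425 to 0.828 of Cd74, H2-Ab1 0.305 to 0.634 and H2-Eb1 0.330 to 0.603. These are ratios of CPM, not corrected for transcript length. The ratios of the other genes to Cd74 varied more. The ratio of H2-DMb1 to Cd74 ran from 0.0406 to 0.336 and that of Cd86 to Cd74 from 0.0591 to 0.790. As a measure of likeness, the root mean square difference of log2 CPM from Cd74 over the 27 libraries, each gene centred on its own mean, was 0.191 for H2-Eb1, 0.236 for H2-Aa and 0.241 for H2-Ab1, the 3 closest of all genes compared. It was 0.797 for H2-DMb1, 0.970 for Cd86, 0.998 for Ciita, 1.06 for Cd80 and 1.22 for H2-DMa, against a median of 1.31 over all genes. By this measure H2-DMb1 was the 58th closest gene to Cd74, Cd86 ranked 311, Ciita 380, Cd80 575 and H2-DMa 2033 among the 20229 genes compared.

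A member was called when edgeR's quasi-likelihood test gave an adjusted p under 0.05, over all 20271 genes tested, and the fold was above 2. In hippocampus, α-IgLON5#1 against pCtrl, 2 of the 9 genes rose, Cd74 and Cd86, where 2.21% of all genes were called higher. Cd74 had a mean of 44.2 ± 32.3 CPM (SD, n = 4) where pCtrl had 11.3 ± 6.17 (n = 4), which is 1.96 on the log2 scale (standard error 0.603, edgeR adjusted p = 0.0472). The chain genes had fold changes of like size that missed the adjusted threshold. H2-Ab1 was at 1.96 (standard error 0.654, edgeR adjusted p = 0.0689), H2-Aa at 1.82 (0.596, adjusted p = 0.0636) and H2-Eb1 at 1.71 (0.565, adjusted p = 0.0659). In 2 of the 9 genes, H2-DMb1 and Cd86, all 4 α-IgLON5#1 hippocampi lay above all 4 pCtrl hippocampi, a separation found in 6.68% of all genes. All 9 fold changes were above 0, with a median of 1.22, and 50.3% of all genes were above 0 (median 0.00).

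In cortex, α-IgLON5#1 against pCtrl, 2 of the 9 genes rose, H2-Aa and H2-Eb1, where 2.14% of all genes were called higher. H2-Aa had a mean of 20.9 ± 9.60 CPM (n = 4) where pCtrl had 4.83 ± 2.92 (n = 5), which is 2.09 on the log2 scale (standard error 0.571, edgeR adjusted p = 0.0373). H2-Eb1 rose from 4.26 ± 2.56 to 16.2 ± 7.06 CPM, 1.90 on the log2 scale (standard error 0.539, edgeR adjusted p = 0.0482). Cd74 at 1.96 (edgeR adjusted p = 0.0545) and H2-Ab1 at 2.16 (adjusted p = 0.0530) fell just outside the threshold. In 6 of the 9 genes, those 4 with H2-DMb1 and Cd86, every α-IgLON5#1 cortex was above every pCtrl cortex, which held for 3.68% of all genes. All 9 fold changes were again above 0 (median 0.98), against 48.4% of all genes.

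Which class II genes were called depended on single libraries. In the hippocampus, Cd86 alone was called without pCtrl mouse 10, 37 or 75 or without α-IgLON5#1 mouse 8 or 17, 5 genes were called without pCtrl mouse 15, and 6 without α-IgLON5#1 mouse 16. In the cortex, 0 of the 9 were called by edgeR without α-IgLON5#1 mouse 8 or pCtrl mouse 10, 11 or 37, 1 without pCtrl mouse 75, and 6 without pCtrl mouse 15 or α-IgLON5#1 mouse 16. With all libraries, 7 of the 9 genes had an unadjusted p under 0.05 in each tissue, as had 4431 of all 20271 genes in the hippocampus and 3116 in the cortex. Without mouse 8 the fold change of Cd74 was 1.48 in the hippocampus (edgeR adjusted p = 0.200) and 1.53 in the cortex (adjusted p = 0.283). Without mouse 15 it was 2.41 in both tissues (edgeR adjusted p = 0.0253 and 0.0248). Over all alternatives, 0 of 549 values of the 9 genes in α-IgLON5#1 against a control turned below 0.

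**Figure D2:**
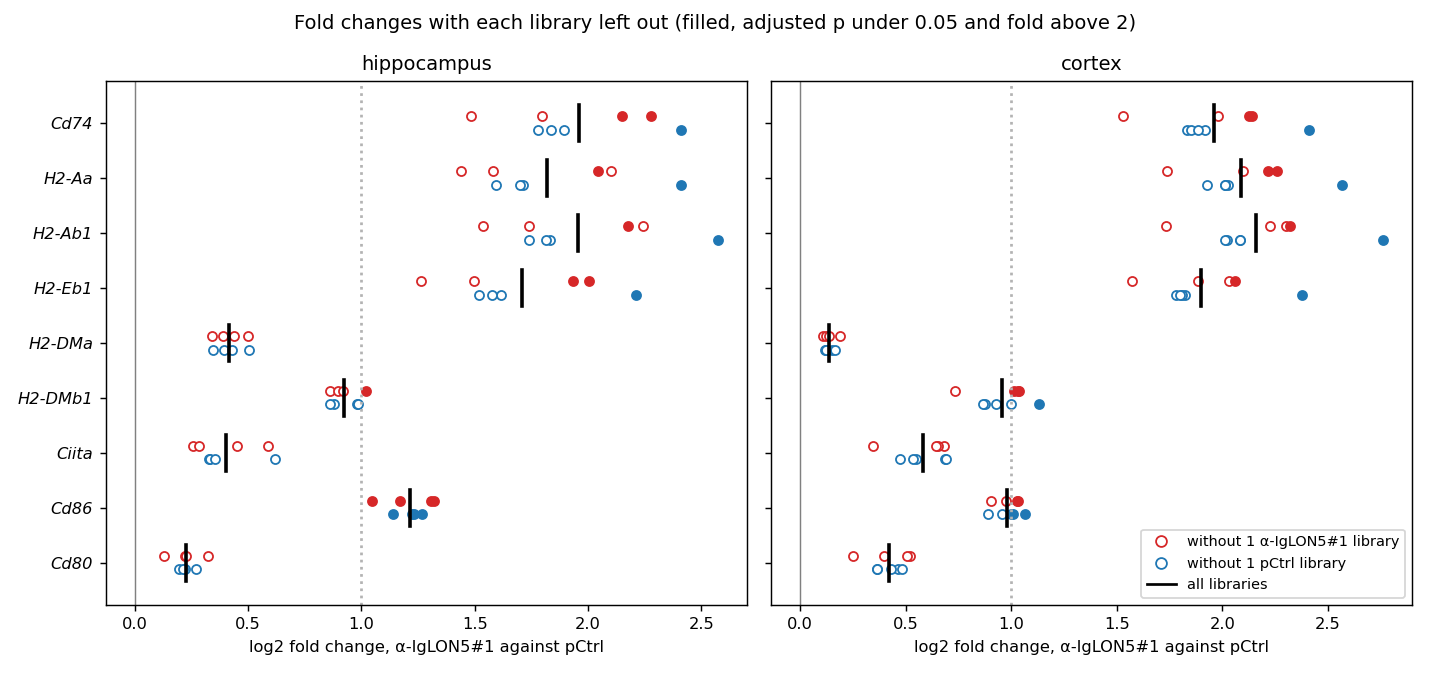
Log2 fold change of each gene, α-IgLON5#1 against pCtrl (x), in hippocampus and cortex, with each library left out in turn, red for α-IgLON5#1 and blue for pCtrl libraries; black bars are the values from all libraries, and filled points have an adjusted p under 0.05 and a fold above 2. For Cd74 in the hippocampus the values run from 1.48 to 2.41 and for Cd86 from 1.05 to 1.32.

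Against PBS, 6 of the 9 genes rose in each tissue, and they were the same 6: Cd74, H2-Aa, H2-Ab1, H2-Eb1, H2-DMb1 and Cd86. The shares of all genes called higher were 2.56% in the hippocampus and 2.24% in the cortex. None of the 9 was called lower in either tissue, where 0.109% and 0.00493% of all genes were. The α-IgLON5#1 libraries are those of the comparison with pCtrl, so the comparisons are not independent. Cd74 was at 8.14 ± 7.18 CPM in PBS hippocampi (n = 5), which made 2.45 on the log2 scale (standard error 0.575, edgeR adjusted p = 0.00872), and at 8.00 ± 6.66 in PBS cortices, for 2.20 (standard error 0.573, adjusted p = 0.0276). The chain genes had log2 fold changes of 2.35 to 2.44 in the hippocampus and 2.23 to 2.48 in the cortex. In a fit of only the groups compared, 2 of the 9 were called in the hippocampus, H2-DMb1 and Cd86, while Cd74 (edgeR adjusted p = 0.0566), H2-Aa (0.0693), H2-Ab1 (0.0944) and H2-Eb1 (0.0623) were not, and 5 were called in the cortex, without H2-DMb1 (0.0780). H2-Ab1 in the hippocampus was called in 4 of 9 refits with 1 library left out, and not without PBS mouse 32, 33 or 74 or α-IgLON5#1 mouse 8 or 17. Without mouse 8, the calls were H2-DMb1 and Cd86 in the hippocampus and Cd86 in the cortex. In the cortex 2 genes were called without PBS mouse 14, 32, 33 or 74, and 6 without PBS mouse 38.

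Control IgG alone gave no call. In pCtrl against PBS, 0 of the 9 genes were called by edgeR in the hippocampus, where 0.0641% of all genes were called in either direction, and 0 in the cortex, where 0% were, while the unadjusted p was under 0.05 for 2828 of all 20271 genes in the hippocampus and for 1650 in the cortex. DESeq2 also called 0 of the 9 in each tissue. At an unadjusted p under 0.05 there was 1 in the hippocampus, H2-DMa, which was lower in pCtrl (log2 fold change -0.22), and 0 in the cortex. Cd74 was at 0.49 in the hippocampus (95% interval -0.68 to 1.67) and at 0.24 in the cortex (-0.91 to 1.38), intervals that leave room for a change of more than 2-fold. Without pCtrl mouse 15 the cortex value for Cd74 was -0.21.

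**Figure D3:**
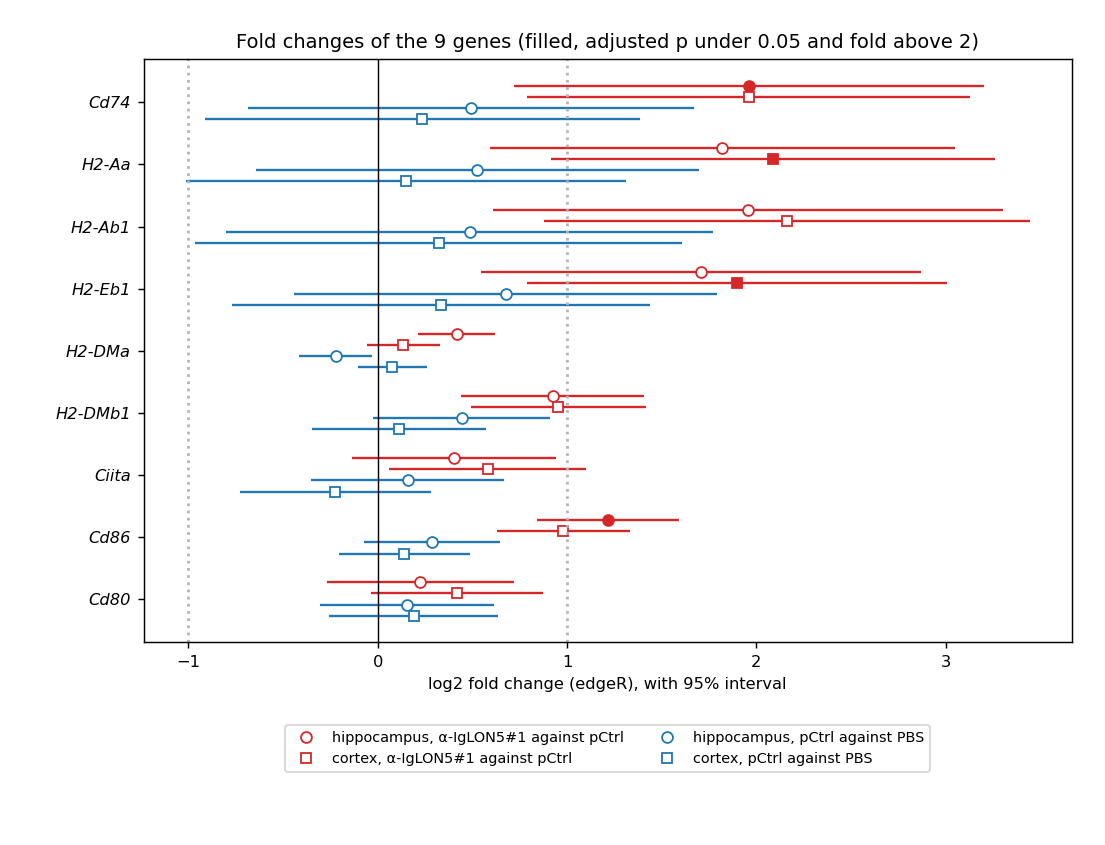
Log2 fold changes (x) with 95% intervals for the 9 genes (y), α-IgLON5#1 against pCtrl in red and pCtrl against PBS in blue, circles for hippocampus and squares for cortex; filled symbols have an adjusted p under 0.05 and a fold above 2. The intervals of Cd74 and the 3 chain genes are the widest, and those of H2-DMa and Cd86 are narrow.

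No difference between the tissues was called for these genes. In PBS mice 0 of the 9 genes were called between tissues, where 5.57% of all genes were. Of the 9, 1 gene had an adjusted p under 0.05, H2-DMa, which was 1.20-fold higher in the hippocampus (edgeR adjusted p = 0.0293) and under the fold threshold. The interaction of tissue with α-IgLON5#1 against pCtrl gave 0 calls among the 9 (edgeR) and 0% of all genes, with an unadjusted p under 0.05 for H2-DMa among the 9 and for 2158 of all genes, and DESeq2 called 0 of the 9. For Cd74 the interaction was 0.00 on the log2 scale with a 95% interval of -1.75 to 1.75 in this fit, which does not pair the tissues of a mouse. With the mouse number as a block it was -0.18 with an interval of -0.78 to 0.41.

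For Cd74 and the 3 chain genes, the tissue difference within a mouse varied less than the level did between mice of a group. For Cd74 the log2 difference between the tissues of a mouse had an SD of 0.480 over 13 mice, against an SD of 0.912 between mice within groups, and in 12 of 13 mice it was under 1. The exception was α-IgLON5#1 mouse 9, whose hippocampus was 1.04 lower than its cortex. Mouse 15 differed by 0.125 and mouse 38 by 0.0668, so both control mice with high class II were high in both tissues. For the chain genes the SDs were 0.520 to 0.569 between tissues and 0.861 to 0.992 between mice. For the other 5 genes the SDs were 0.369 between tissues and 0.262 between mice for Cd86, 0.251 and 0.136 for H2-DMa, 0.423 and 0.337 for Cd80, 0.404 and 0.402 for Ciita, and 0.331 and 0.339 for H2-DMb1. The SD of a difference carries the variation of both tissues and was taken over all treatments. A larger value than between mice therefore does not show that tissues differ more than mice.

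**Figure D4:**
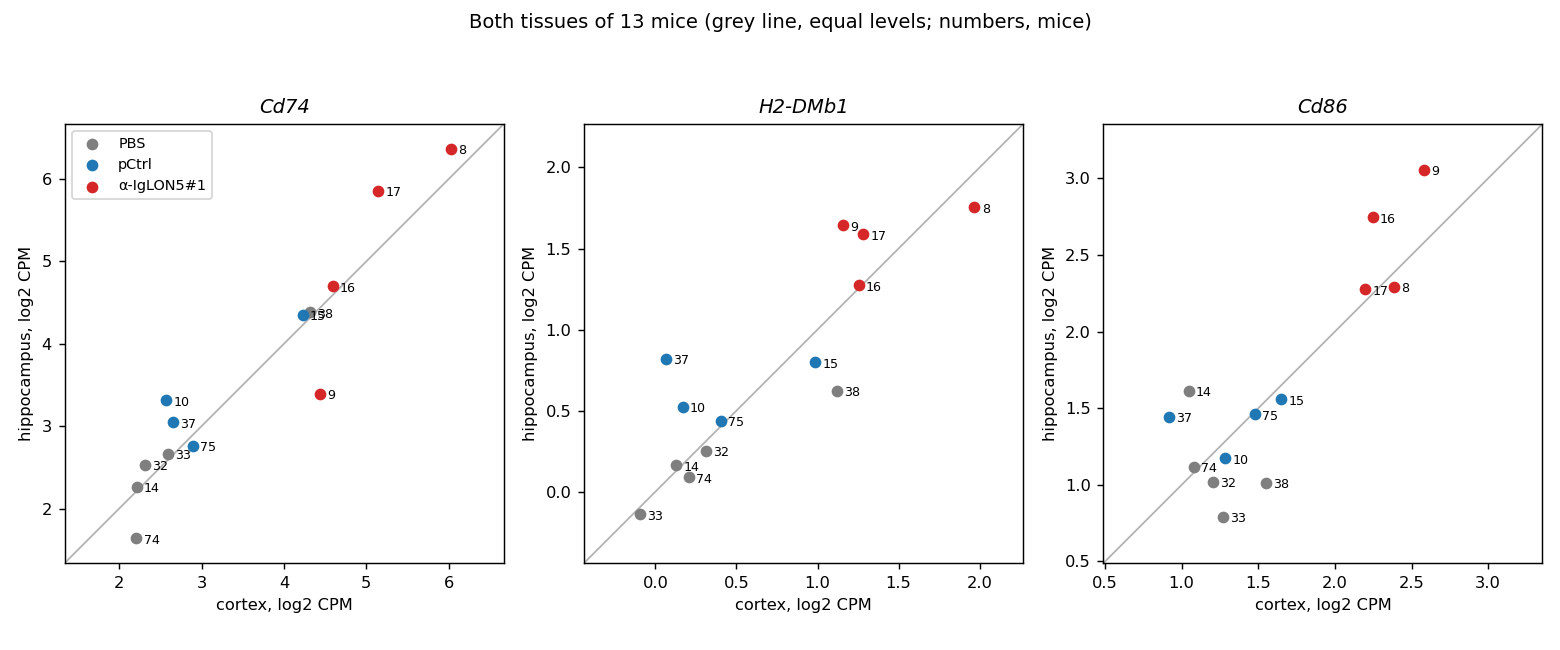
Hippocampal (y) against cortical level (x), both log2 CPM, of Cd74, H2-DMb1 and Cd86 in the 13 mice with both tissues, numbered and coloured by treatment; the grey line marks equal levels. For Cd74, mouse 9 lies 1.04 below the line, and PBS mouse 38 and pCtrl mouse 15 lie with the lower α-IgLON5#1 mice, while for Cd86 all 4 α-IgLON5#1 mice are apart.

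Cd86 (ENSMUSG00000022901.13, chromosome 16, 36603869 to 36666081) was the member with the smallest adjusted p against pCtrl in both tissues. In α-IgLON5#1 hippocampi it was 8.28 CPM in mouse 9, 6.68 in mouse 16, 4.87 in mouse 8 and 4.81 in mouse 17. In pCtrl hippocampi it was 2.91, 2.73, 2.69 and 2.23 in mice 15, 75, 37 and 10, and PBS hippocampi ranged from 1.70 to 3.04. The order within the α-IgLON5#1 hippocampi was not that of Cd74, since mouse 9 had the lowest Cd74 and the highest Cd86. The log2 fold change in the hippocampus was 1.22 (standard error 0.181, edgeR adjusted p = 8.3e-05), and Cd86 was called in all 8 refits with 1 library left out. In α-IgLON5#1 cortices it was 5.95, 5.19, 4.72 and 4.55 CPM in mice 9, 8, 16 and 17, and in pCtrl cortices 1.86 to 3.11, so the groups were apart. The cortical change of 0.98 (standard error 0.172, edgeR adjusted p = 0.000663) was just under the fold threshold. Against PBS it was 1.50 in the hippocampus and 1.12 in the cortex, both called.

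Cd80 (ENSMUSG00000075122.5, chromosome 16, 38455561 to 38496335), the other ligand of Cd28, was not called in any of the comparisons. It was 1.57 ± 0.301 CPM in α-IgLON5#1 hippocampi against 1.35 ± 0.0892 in pCtrl, a log2 fold change of 0.23 (95% interval -0.27 to 0.72). In the cortex it was 2.05 ± 0.540 (n = 4) against 1.55 ± 0.262 (n = 5), 0.42 (-0.04 to 0.87), and the highest levels were 2.77 in α-IgLON5#1 mouse 8 and 2.40 in PBS mouse 38. The 95% intervals of α-IgLON5#1 against pCtrl lay under a doubling in both tissues. Against PBS the change was 0.38 in the hippocampus (-0.09 to 0.86). In the cortex it was 0.61 (0.15 to 1.06, edgeR adjusted p = 0.224), an interval above 0 that reaches past a doubling. A test of Cd86 against Cd80 was not made.

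The 2 genes of the peptide exchanger are given separately, and a test of H2-DMb1 against H2-DMa was not made. H2-DMb1 (ENSMUSG00000079547.4, chromosome 17, 34153072 to 34160230) was 3.35, 3.10, 2.98 and 2.39 CPM in α-IgLON5#1 hippocampi of mice 8, 9, 17 and 16, against 1.33 to 1.74 in pCtrl and 0.880 to 1.51 in PBS. It was 3.89 in mouse 8 and 2.20 to 2.40 in the other α-IgLON5#1 cortices, against 1.02 to 1.95 in pCtrl. Its log2 fold change against pCtrl was 0.92 in the hippocampus (standard error 0.235, edgeR adjusted p = 0.0168) and 0.95 in the cortex (standard error 0.224, adjusted p = 0.0119), with the adjusted p under and the fold not over the threshold. Against PBS it was called in both tissues, at 1.37 and 1.07. The adjacent paralog H2-DMb2 is close in sequence, and how reads that fit both were counted is not stated in the sources used here, so their values may share reads. H2-DMa (ENSMUSG00000037649.10, chromosome 17, 34119541 to 34139101) stayed between 8.87 and 16.1 CPM in all 27 libraries, 11.5 to 16.1 in α-IgLON5#1 hippocampi and 8.87 to 12.1 in pCtrl. Its log2 fold change of 0.42 in the hippocampus (standard error 0.0986, edgeR adjusted p = 0.0102) was under the fold threshold, and that in the cortex was 0.13 (adjusted p = 0.531). Against PBS hippocampi, at 11.8 to 12.6 CPM, it was 0.19 (edgeR adjusted p = 0.317). H2-DMa shares 360 exon bases with Brd2 on the opposite strand, which had 3511 to 12505 counts per library where H2-DMa had 210 to 718. The strand setting of the count is not stated in the sources used here, so reads of Brd2 could be among those of H2-DMa. Brd2 itself was at 0.04 in the hippocampus and -0.03 in the cortex on the log2 scale (edgeR adjusted p = 0.711 and 0.798).

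Ciita (ENSMUSG00000022504.10, chromosome 16, 10480059 to 10528418) was not called in any comparison. In α-IgLON5#1 hippocampi it was 5.41 CPM in mouse 8, 5.04 in mouse 17, 3.74 in mouse 16 and 2.25 in mouse 9, the order of Cd74. In pCtrl hippocampi it was 4.40 in mouse 15 and 2.64 to 2.80 in the other 3, and the groups overlapped. The log2 fold change was 0.40 in the hippocampus (95% interval -0.14 to 0.94, edgeR adjusted p = 0.394) and 0.58 in the cortex (0.06 to 1.10, adjusted p = 0.251). In the cortex mouse 8 had 5.08 CPM and the other α-IgLON5#1 mice 2.67 to 3.05, against 1.60 to 2.95 in pCtrl. Ciita shares 329 exon bases with Dexi on the opposite strand, which had 468 to 1641 counts against 39 to 234 for Ciita, so the same limit as for H2-DMa holds. The 5 genes most like Ciita in profile were Cfp, Il18bp, Ecm1, Fhod1 and Nfkb1, with differences of 0.237 to 0.288. Cd74 was at 0.998 from Ciita, where the median over all genes was 0.503. The measure is not scaled for how widely a gene varies, and Cd74 ranged over 4.73 on the log2 scale in the 27 libraries and Ciita over 1.74, so the distance does not compare the shape of their profiles alone.

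Levels per kilobase of exon put the genes on one scale. In α-IgLON5#1 hippocampi the order was Cd74 (26.3 ± 19.2 CPM per kilobase), H2-Eb1 (10.2 ± 7.40), H2-Ab1 (8.46 ± 5.97), H2-Aa (6.83 ± 4.68), H2-DMa (4.03 ± 0.567), H2-DMb1 (1.76 ± 0.241), Cd86 (1.68 ± 0.453), Ciita (0.431 ± 0.150) and Cd80 (0.423 ± 0.0814). The SDs are between mice, and within a library the order of Cd74, H2-Eb1, H2-Ab1 and H2-Aa was the same in all 4. H2-DMa lay below H2-Aa in mice 8, 16 and 17 and above the 3 chain genes in mouse 9, and it lay above H2-DMb1 in all 4, as did Cd86 above Ciita. H2-DMb1 and Cd86 changed places between mice, as did Ciita and Cd80. In PBS hippocampi the order differed between mice. Cd74 was at 12.4 CPM per kilobase in mouse 38 and at 1.84 to 3.76 in the other 4, where H2-DMa was at 3.42 to 3.65 in all 5. H2-DMa lay above Cd74 in mice 14 and 74 and above the 3 chain genes in every mouse but 38, in which H2-Eb1 (5.04) and H2-Ab1 (4.59) were higher.

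C57BL/6 mice make no E molecule at the cell surface, since the gene of its α chain is defective. H2-Ea-ps, as the annotation names that gene, had 0 counts in all 27 libraries, which allows at most 3 counts or 0.0512 to 0.155 CPM by library, for counting error only. H2-Eb1, the β chain of the same molecule, was at 36.0 CPM in the hippocampus of mouse 8. H2-Ea was not analysed here under that symbol, and H2-Eb2, a further β chain, had at most 16 counts in a library.

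The other genes of the pathway were read from 3 lists. Of 13 genes of loading and processing, 10 were tested, and 5 rose in α-IgLON5#1 against pCtrl hippocampi, Ctss, Ifi30, H2-DMb2, H2-Oa and H2-Ob, and 3 in cortices, Ctss, Ifi30 and H2-DMb2, with 0 lower in either, beside 2.21% and 2.14% of all genes called higher. The median log2 fold change of the list was 0.88 in the hippocampus and 0.50 in the cortex, against 0.00 and -0.01 over all genes. Ctss, the cathepsin that removes the invariant chain, was 144.3 to 231.3 CPM in α-IgLON5#1 hippocampi and 58.0 to 83.0 in pCtrl, 1.41 on the log2 scale (edgeR adjusted p = 8.44e-07). In the cortex Ctss was 124.2 to 149.0 CPM against 53.5 to 80.7, 1.02 on the log2 scale (edgeR adjusted p = 3.14e-05). Ifi30, the thiol reductase of endosomes, was 6.51 to 12.2 CPM in α-IgLON5#1 hippocampi and 2.12 to 2.87 in pCtrl, a change of 1.95 (edgeR adjusted p = 1.16e-06), and it was at 1.57 in the cortex (adjusted p = 1.62e-05). In the α-IgLON5#1 hippocampi both genes were highest in mouse 9, where Cd74 was lowest. H2-Oa and H2-Ob encode the H2-O dimer that restrains H2-DM and is known from B cells and thymus. H2-Ob was at 1.34 in the hippocampus (edgeR adjusted p = 0.0160) and 0.72 in the cortex (adjusted p = 0.269), on 8 to 58 counts per library. H2-Oa was at 1.69 in the hippocampus (edgeR adjusted p = 0.00975) and 1.04 in the cortex (adjusted p = 0.153), on 1 to 26 counts, and it overlaps an antisense gene. Ifi30, Ctsb and Cd274 also share exon bases with genes on the opposite strand, which had fewer counts. H2-DMb2 was at 1.37 and 1.11 (edgeR adjusted p = 0.00992 and 0.0474), on 3 to 36 counts. Lgmn, Ctsl and Ctsb, endosomal proteases, had an adjusted p under 0.05 in the hippocampus with log2 fold changes of 0.18 to 0.42, under the fold threshold, as had Ctsl in the cortex (0.22).

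Of 18 regulators of class II transcription, 17 were tested, with 3 called higher in the hippocampus (Spi1, Irf8, Irf4), 1 in the cortex (Spi1) and 0 lower, against the same 2.21% and 2.14% of all genes. The medians of the list were 0.21 and 0.10. Spi1, the myeloid factor PU.1, was at 1.78 in the hippocampus (edgeR adjusted p = 0.000116) and 1.47 in the cortex (adjusted p = 0.000602). Irf8, a partner of PU.1 in microglia and other myeloid cells, was 11.8 to 17.5 CPM in α-IgLON5#1 hippocampi and 5.48 to 7.43 in pCtrl (log2 fold change 1.38, edgeR adjusted p = 1.5e-06), and at 0.92 in the cortex (adjusted p = 0.000175), under the fold threshold. Irf4, known from B and plasma cells and some dendritic cells, was at 2.67 in the hippocampus (edgeR adjusted p = 9.94e-05), with 0.676 CPM at the lowest and 4.38 at the highest, and at 1.25 in the cortex (adjusted p = 0.0719). None of the 7 DNA-binding subunits of the class II module was called. In the hippocampus Rfx5 was at 0.21, Rfxap at 0.00, Rfxank at 0.05, Nfya at 0.10, Nfyb at -0.11, Nfyc at 0.08 and Creb1 at -0.15, with edgeR adjusted p from 0.0852 to 0.988. In the cortex Rfx5 was at 0.10, Rfxap at 0.04, Rfxank at -0.04, Nfya at 0.01, Nfyb at -0.02, Nfyc at -0.14 and Creb1 at -0.05, with edgeR adjusted p from 0.250 to 0.971. Interferon gamma is the classic inducer of Ciita. Ifng had 0 counts in 25 libraries and 1 count in each of the other 2, both cortices. A 0 allows at most 3 counts, for counting error only, and tissue was taken once, after 14 days. The part of interferon gamma was not tested. Its receptor chain Ifngr1 was at 0.56 (edgeR adjusted p = 0.000530) and 0.39 (adjusted p = 0.0124), under the fold threshold.

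Of 13 genes of costimulation and T cell help, 9 were tested, with 3 called higher in the hippocampus (Icos, Lag3, Cd4), 3 in the cortex (Cd274, Icos, Lag3) and 0 lower, against 2.21% and 2.14% of all genes. The medians of the list were 1.25 and 1.10. Lag3, an inhibitory receptor that binds class II, was 17.3 to 35.4 CPM in α-IgLON5#1 hippocampi and 7.19 to 11.8 in pCtrl, a log2 fold change of 1.60 (edgeR adjusted p = 1.05e-05), and was at 1.01 in the cortex (adjusted p = 0.00169). Lag3 was present in every control library, at 6.14 CPM or more. Cd274, the inhibitory ligand PD-L1, was at 2.33 in the cortex (edgeR adjusted p = 0.00343), where mouse 8 had 14.5 CPM and the lowest α-IgLON5#1 cortex 1.19, and at 1.41 in the hippocampus (adjusted p = 0.0780). Icos, a receptor of activated T cells, was at 2.22 and 2.04 (edgeR adjusted p = 0.00230 and 0.0101) on 1 to 30 counts. Cd4, the coreceptor for class II, was at 1.67 in the hippocampus (edgeR adjusted p = 0.0128) and 1.07 in the cortex (adjusted p = 0.128). Icosl, the ligand of Icos, was at 0.71 and 0.75 (edgeR adjusted p = 0.0165 and 0.0128), under the fold threshold.

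Genes that mark other cell types moved in the same libraries, and the counts of called markers stand beside 2.21% (hippocampus) and 2.14% (cortex) of all genes called higher against pCtrl. The summed level of 10 markers of homeostatic microglia was 254.9 to 317.9 CPM in control hippocampi and 338.6 to 568.1 in α-IgLON5#1 hippocampi, with mouse 9 highest, and 277.7 to 346.3 in control and 319.3 to 363.8 in α-IgLON5#1 cortices. The list did not move as one. Its fold changes against pCtrl were above 0 for 8 of the 10 in the hippocampus, 5 of them with an adjusted p under 0.05, and for 6 of the 10 in the cortex, and none was called in either tissue. The share of all genes at that adjusted p alone is not given here. In the hippocampus 4431 of all 20271 genes had an unadjusted p under 0.05. P2ry12, a purine receptor of resting microglia, was 18.2 to 35.6 CPM in α-IgLON5#1 and 33.9 to 44.2 in pCtrl hippocampi, at -0.37 on the log2 scale (edgeR adjusted p = 0.241), and at -0.43 in the cortex (adjusted p = 0.213). Tmem119 was 22.5 to 48.95 CPM in α-IgLON5#1 and 20.5 to 25.3 in pCtrl hippocampi, at 0.67 (edgeR adjusted p = 0.0176), and at 0.18 in the cortex (adjusted p = 0.652). Divided by the sum of all 10, Cd86 was 0.00647 to 0.0103 in the 19 control libraries and 0.0131 to 0.0164 in the 8 α-IgLON5#1 libraries. The class II sum of Cd74 and the 3 chain genes divided by it was 0.0250 to 0.219 in controls and 0.0555 to 0.595 in α-IgLON5#1. The part of microglia in either level was not tested. The 8 genes most like Cd86, a count chosen after the values were seen, were C1qc, Unc93b1, Tyrobp, Ctss, B2m, C1qb, Pld4 and C1qa, at differences of 0.144 to 0.207, several of them known microglial genes, and C1qc was 31.5 to 56.3 CPM in controls and 78.1 to 168.5 in α-IgLON5#1.

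**Figure D5:**
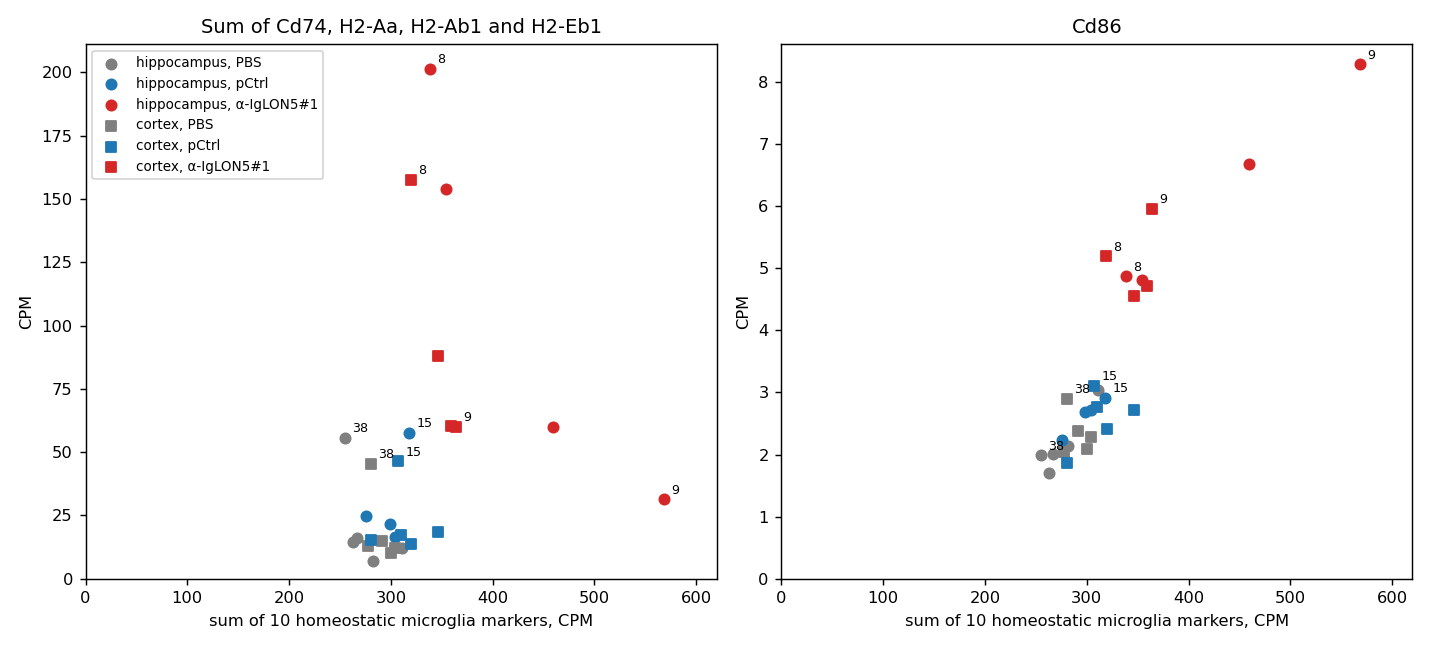
Class II sum (Cd74, H2-Aa, H2-Ab1 and H2-Eb1, left) and Cd86 (right), both in CPM (y), against the summed CPM of 10 homeostatic microglia markers (x) in the 27 libraries, coloured by treatment with circles for hippocampus and squares for cortex. Cd86 is highest in mouse 9 hippocampus, which has the highest marker sum (568.1 CPM), whereas the class II sum is highest in mouse 8 (201.5 CPM) at a marker sum of 338.6.

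Cd74 had other neighbours. The 8 genes outside the 9 with the most similar profile were Ccr2 (0.456), Ms4a7 (0.542), Lyz2 (0.575), Gimap4, Clec4n, Slamf7, Gm1966 and Ifi47 (0.670). Ccr2 marks monocytes and Ms4a7 macrophages of the brain borders. Ccr2 was 0.313 to 2.56 CPM in controls and 1.63 to 14.1 in α-IgLON5#1, with the cortex of mouse 8 highest. The sum of 10 markers of border and infiltrating macrophages was 11.1 to 40.4 CPM in controls and 9.63 to 64.6 in α-IgLON5#1, again with mouse 8 highest. Of the 10, 3 rose and 1 fell in the hippocampus against pCtrl and 4 rose and 1 fell in the cortex, where 0.237% (hippocampus) and 0.0247% (cortex) of all genes were called lower, with Ms4a7, Ly6c2 and Clec12a higher in both and Lyve1, a marker of perivascular macrophages, lower in both. Ccr2 was not among those called in the hippocampus. The median log2 fold change of the 10 was -0.34 in the hippocampus and 0.33 in the cortex. Mrc1, the most abundant, was at -0.06 and 0.59 (edgeR adjusted p = 0.966 and 0.610). Of 10 genes of disease-associated microglia, 4 rose in the hippocampus and 3 in the cortex, with Itgax, Cst7 and Clec7a in both.

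Of 10 dendritic cell markers, 9 were tested and 1 rose in each tissue (Siglecg, Itgae). Xcr1 had at most 7 counts in a library, while Zbtb46 (6.55 to 19.6 CPM) and Flt3 (5.42 to 13.3 CPM) were present in every library. Of 10 B cell markers, 9 were tested, 4 rose in the hippocampus and 2 in the cortex, and their sum was 3.51 to 5.22 CPM in controls and 4.68 to 12.4 in α-IgLON5#1. Of 7 plasma cell markers, 6 were tested and 2 rose in each tissue, among them Jchain, and their sum was 3.76 to 5.49 CPM in controls and 8.62 to 92.5 in α-IgLON5#1. Of 10 T cell markers, 5 were tested, with 0 called in the hippocampus and 1 in the cortex. Of 8 neutrophil markers, 5 were tested and 0 called, and their sum reached 12.9 CPM in the cortex of mouse 8 against 1.02 to 4.997 in controls. Markers of choroid plexus, endothelium, neurons and oligodendrocytes gave no call in either tissue, and of 8 astrocyte markers 1, Gfap, rose in both. The part of these cells in the class II levels was not tested.

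Across the whole matrix, total counts per library ran from 19385642 to 58550621, and the members had from 21 to 2397 counts in a library. The α-IgLON5#1 hippocampi, from 19428512 to 32776892, had the lowest median, and the lowest total was that of a pCtrl cortex. Pituitary genes were present at widely differing levels. Gh had at least 11 counts in every library and reached 2976 CPM in the hippocampus of PBS mouse 74, the control with the lowest Cd74. The summed level of 8 pituitary genes was 1.97 to 41.5 CPM in α-IgLON5#1, 7.48 to 220.2 in pCtrl and 4.14 to 3906 in PBS hippocampi. Pomc was 0.845 to 1.97 CPM in α-IgLON5#1 and 3.59 to 94.5 in pCtrl hippocampi, and it fell by 4.81 on the log2 scale (edgeR adjusted p = 0.0248), where 0.237% of all genes were called lower. Prl and Cga fell against PBS in the hippocampus, where 0.109% of all genes were called lower. The highest PBS sum was that of mouse 74, and the next was 101.1 CPM in mouse 14. The part of pituitary tissue in the class II levels was not tested. Without mouse 74 in the hippocampus, 5 of the 9 genes were called against PBS. The α-IgLON5#1 animals are mice 8, 9, 16 and 17, and most controls have higher numbers. Within the numbers 8 to 17, where 2 pCtrl hippocampi and 3 pCtrl cortices remain, 0 of the 9 genes were called by edgeR in either tissue, and the log2 fold changes were 1.54 for Cd74 and 1.25 for Cd86 in the hippocampus (edgeR adjusted p = 0.398 and 0.0526) and 1.73 and 0.89 in the cortex (adjusted p = 0.288 and 0.102). What the numbers stand for beyond the mouse is not stated in the sources used here.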

How the data were processed

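RNA-seq was measured in 27 libraries of hippocampus and cortex from 14 mice. The values are whole-number counts per gene, which the authors made by aligning reads to GRCm38 with STAR and deposited as 1 matrix with no normalization. The strand setting of the counting is not given in the sources used here. Counts of 55487 genes were kept if at least 4 libraries had 10 or more (20271 genes), and 55141 ids had a symbol in GENCODE M21. All groups entered 1 fit in edgeR 4.0.16 (R 4.3.3), with TMM size factors, the quasi-likelihood test and Benjamini-Hochberg adjustment over all genes tested. Calls needed a fold above 2 with an adjusted p under 0.05, and for the interaction the latter only. The fit was also run on simulated data with independent libraries and the same relative spread for every gene. That run does not cover genes as variable as Cd74 or tissues that share a mouse. CPM used TMM-normalized library sizes, and the log2 scale of the likeness and the tissue differences used a prior count of 1. Totals ran from 19385642 to 58550621, and counting error is only part of the spread.

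Groups came from the labels. Libraries whose titles share a number were read as tissues of 1 mouse. The p-values rest on the spread within groups, estimated over all 6 groups together and not from the compared groups alone. Except in the replicate block, the tissues of a mouse entered as separate, unpaired libraries. No within-group pair of libraries agreed within sampling noise (smallest chi-square per degree of freedom 4.443). All 9 genes, the genes of 3 pathway lists with an adjusted p under 0.05 in α-IgLON5#1 against pCtrl, H2-Ea, Ifng and H2-Ob, the most abundant marker of a list and the genes most like Cd74 and Ciita were to be named, except for items that are not reported here. Other marker genes and those most like Cd86 were named after their values were seen. The 9 genes and all lists were chosen with earlier results of these data known. Alternatives were DESeq2 1.42.0, RLE size factors, other count filters, no fold threshold, only the groups compared, only mice 8 to 17, single libraries left out, a replicate block and CPM from library totals.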

Additional observations from a re-analysis of the deposited data

Results flagged for a closer look

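In 6 of 54 sets of libraries (9 genes in 6 groups), 1 library stood apart by Dixon's test on the log2 scale. The gap to the nearest library passed a limit set by the group's size. It took 0.728 to 0.887 of the group's range in these 6. Chance gives about 1 in 20 for independent sets, but these sets share mice and several of the genes move together. PBS mouse 38 was apart for Cd74 in the cortex, with 19.9 CPM. Mouse 15 accounted for 4, with Cd74 at 18.7 CPM, H2-Ab1 at 8.95 and H2-Eb1 at 8.83 in the pCtrl cortex, and Ciita at 4.4 in the pCtrl hippocampus. The last was H2-DMb1 in the cortex of α-IgLON5#1 mouse 8, at 3.89 CPM. In both control mice Cd74 was also the highest of the group in the hippocampus, at 20.8 CPM in mouse 38 and 20.4 in mouse 15.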

How the results depend on the processing

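Of 1189 values of single genes under alternatives, 1036 kept their direction and side of the threshold, 58 fell out of the call, 34 entered it and 61 changed sign, 0 of these in the 549 values of α-IgLON5#1 against a control. Cd86 had an adjusted p under 0.05 in 59 of its 61, and 0 of 54 group means moved by more than their SD when CPM used library totals. Against pCtrl in the hippocampus 4 genes were called with no fold threshold, 1 with only the groups compared and 0 with only mice 8 to 17. In the cortex the counts were 4, 4 and 0, with 5 under no filter beyond 1 count, 1 with at least 10 counts in every library and 4 in DESeq2. Against PBS in the hippocampus 2 were called with only the groups compared, and between tissues 1 with no fold threshold. With single libraries left out the counts ran from 1 to 6 and 0 to 6 against pCtrl (hippocampus, cortex), 2 to 6 and 1 to 6 against PBS. Where no fold threshold or fewer genes or samples is the change, that is its construction; otherwise the cause was not tested.

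Sign changes were in contrasts with no call. With single libraries left out, pCtrl against PBS in the cortex ran from -0.21 to 0.90 for Cd74, -0.33 to 0.71 for H2-Aa, -0.28 to 0.98 for H2-Ab1, -0.15 to 0.82 for H2-Eb1 and -0.0610 to 0.37 for H2-DMb1, and in the hippocampus from -0.0632 to 1.24 for H2-Aa, -0.13 to 1.399 for H2-Ab1 and -0.0562 to 0.23 for Ciita. Between tissues in PBS mice it ran from -0.68 to 0.69 for Cd74, -0.51 to 0.77 for H2-Aa, -0.60 to 0.98 for H2-Ab1, -0.54 to 0.63 for H2-Eb1, -0.30 to 0.0740 for H2-DMb1, -0.0662 to 0.21 for Ciita and -0.31 to 0.15 for Cd80. The interaction ran from -0.48 to 0.45 for Cd74, -0.75 to 0.32 for H2-Aa, -0.81 to 0.41 for H2-Ab1, -0.67 to 0.32 for H2-Eb1, -0.21 to 0.19 for H2-DMb1 and -0.33 to 0.0553 for Ciita. For Cd74 it was -0.008299 with RLE size factors, -0.06402 with no filter, -0.01226 with 10 counts in every library, -0.01256 with only the groups compared, -0.19 with mice 8 to 17 and -0.02142 in DESeq2, and for H2-DMb1 it was 0.10 with mice 8 to 17.

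Same-numbered hippocampus and cortex deviated together in part (correlation -0.0498 to 0.443, above 0.1 in 8 of 13 pairs), which does not show the pairing from the data. With the mouse number as a replicate block, the interaction of Cd74 was -0.18 and its tissue difference in PBS mice -0.0147, and 2 genes of the matrix and 0 of the 9 were called in the interaction. Depth limits H2-Oa, H2-DMb2, Icos and the rarer markers most, at under 40 counts per library.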
